A study of Mus musculus with 8 samples.

Results

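The genes described are 10 members of clade A of the serpins, Serpina1a to Serpina1e, Serpina3k, Serpina3m, Serpina3n, Serpina6 and Serpina7, out of 35275 genes in the table and 29 clade A genes and pseudogenes. They were picked by symbol from earlier results of these same livers, Serpina7 because it was higher and its paralogs to set beside it, so the differences between genotypes are given as a description and without a p-value. RNA from whole liver of 4 Pcx L-/- mice and 4 littermate controls was sequenced, with 1 library per mouse. All 8 were male, 9 weeks old and fasted for 24 h, on a C57BL/6 background. Pcx L-/- mice carried a floxed exon 10 of Pcx, the gene of pyruvate carboxylase, and Cre driven by the albumin promoter, which deletes the gene in hepatocytes but not in the other cells of the liver. The labels call the controls WT, and the study's methods describe them as littermates with the floxed gene and no deletion (Pcx f/f).

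Serpins are proteins whose exposed reactive centre loop is offered to a protease as bait, and in the inhibitory members cleavage of that loop traps the protease. The liver secretes most clade A serpins into plasma. Serpina1 genes encode alpha1-antitrypsins, which inhibit neutrophil elastase in their human form, and mice carry several copies that differ in the loop and elsewhere. Serpina3 genes encode antichymotrypsin-like inhibitors, again multiplied in mice. Serpina6 (corticosteroid-binding globulin) and Serpina7 (thyroxine-binding globulin) have kept the serpin fold but carry hormones instead of inhibiting proteases. In adult rodents transthyretin and albumin also carry thyroid hormone in plasma.

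The loops show how these paralogs differ, and they are given here as the coding bases from the hinge glutamate to the residue before the conserved motif that ends the loop, read on the coding strand of GRCm38 transcripts (GENCODE M21). Each stretch lies within 1 coding exon. In the 5 Serpina1 genes it spans 78 bases (26 codons), and capitals mark a base that differs from the commonest base of the 5. Where bases tied for commonest, the first in the alphabet was taken, so a capital there is no rarer than the base it is set against.
Serpina1a, chr12:103853759-103853836, minus strand: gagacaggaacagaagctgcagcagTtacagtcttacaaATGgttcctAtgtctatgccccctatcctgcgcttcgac
Serpina1b, chr12:103728326-103728403, minus strand: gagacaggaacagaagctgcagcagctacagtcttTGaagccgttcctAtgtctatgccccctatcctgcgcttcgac
Serpina1c, chr12:103895096-103895173, minus strand: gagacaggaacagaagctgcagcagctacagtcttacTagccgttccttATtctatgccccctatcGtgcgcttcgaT
Serpina1d, chr12:103763764-103763841, minus strand: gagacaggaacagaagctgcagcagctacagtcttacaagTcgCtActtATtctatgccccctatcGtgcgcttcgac
Serpina1e, chr12:103947102-103947179, minus strand: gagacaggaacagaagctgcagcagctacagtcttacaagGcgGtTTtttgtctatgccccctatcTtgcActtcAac
Pairs of these stretches differed at 5 bases (Serpina1c and Serpina1d) to 11 bases (Serpina1a or Serpina1c and Serpina1e), and 17 of the 78 positions varied among the 5. In the 3 Serpina3 genes the first 29 bases were identical, and capitals mark what follows them.
Serpina3k, chr12:104345263-104345343, plus strand: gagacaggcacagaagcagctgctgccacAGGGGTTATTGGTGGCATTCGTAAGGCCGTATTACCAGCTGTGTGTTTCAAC
Serpina3m, chr12:104393763-104393849, plus strand: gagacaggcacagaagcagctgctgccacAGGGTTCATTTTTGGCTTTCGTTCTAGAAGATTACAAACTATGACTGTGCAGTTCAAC
Serpina3n, chr12:104413442-104413528, plus strand: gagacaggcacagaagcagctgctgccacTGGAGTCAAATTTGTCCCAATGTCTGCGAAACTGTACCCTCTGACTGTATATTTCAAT
The hormone carriers have the same part of the protein, shown without capitals because it was not aligned base by base with the others.
Serpina6, chr12:103646924-103647001, minus strand: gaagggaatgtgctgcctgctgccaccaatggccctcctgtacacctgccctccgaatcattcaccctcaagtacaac
Serpina7, chrX:139080369-139080458, minus strand: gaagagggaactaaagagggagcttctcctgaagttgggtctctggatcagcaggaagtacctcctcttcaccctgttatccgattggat

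Over the whole coding sequence, with alignment gaps counted as differences, identity was 96.3% to 96.7% among Serpina1b to Serpina1e. Among the 3 Serpina3 genes it was 82.7% to 91.0%. Serpina1a was at 91.4% to 93.3% with the other Serpina1 genes. Its longest annotated coding sequence has 1308 bases against 1239 in each of those, and the extra bases lower its values. Serpina1a and Serpina1c had 1220 identical bases, the most of any Serpina1 pair. Identity of Serpina7 with the other 9 was between 49.8% (Serpina6) and 54.5% (Serpina3n). Such likeness differs between the genes. This bears on the counts, because reads from near-identical stretches can be assigned to the wrong copy or dropped, and the sources used here do not say how such reads were treated. Of all 100-base windows in the annotated transcripts of a gene, 58.5% of those of Serpina1c and 40.8% of those of Serpina1a occurred letter for letter in another clade A gene, against 26.3% for Serpina1d, 14.4% for Serpina1e and 13.8% for Serpina1b. The share was 6.09% for Serpina3m, 4.85% for Serpina3k and 0.204% for Serpina3n. No window of Serpina6 or Serpina7 was shared. Values of single Serpina1 genes, above all Serpina1a and Serpina1c, are therefore uncertain, and the sum of the 5 is given as well. Serpina3k and Serpina3m also have 60 annotated exon bases in common, since both begin at position 104338486 of chromosome 12.

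Serpina7 (ENSMUSG00000031271) lies alone on the X chromosome, from 139079257 to 139085236 of GRCm38 on the minus strand. The other 9 lie on chromosome 12 in the clade A cluster, with Serpina6 (ENSMUSG00000060807) and the Serpina1 genes on the minus strand between 103646630 and 103958975 and the Serpina3 genes on the plus strand between 104338486 and 104414329. RefSeq start sites (GRCm38.p6) were given for 7 of the 10 genes, and the 120 bases before 4 of them are shown for the gene that was higher (Serpina7) and for 3 that were lower. Capitals mark the letters GTTAAT, a half-site of the liver factor HNF1, and TTGCNNAA, a C/EBP element, on either strand.
Serpina7, chrX:139085237-139085356, minus strand: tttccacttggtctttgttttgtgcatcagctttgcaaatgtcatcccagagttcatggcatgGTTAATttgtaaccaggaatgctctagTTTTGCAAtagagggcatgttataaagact
Serpina1b, chr12:103738190-103738309, minus strand: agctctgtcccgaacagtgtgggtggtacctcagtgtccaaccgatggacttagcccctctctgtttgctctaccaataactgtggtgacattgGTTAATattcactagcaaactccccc
Serpina1e, chr12:103956898-103957017, minus strand: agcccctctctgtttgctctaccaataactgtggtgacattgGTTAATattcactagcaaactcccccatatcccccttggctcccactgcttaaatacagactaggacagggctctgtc
Serpina3n, chr12:104406588-104406707, plus strand: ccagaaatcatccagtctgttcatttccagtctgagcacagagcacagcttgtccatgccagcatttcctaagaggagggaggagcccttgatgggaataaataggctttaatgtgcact
In the full windows, which run from 250 bases before to 50 bases after the start site, GTTAAT was found in 6 of 7 genes, namely Serpina7 and all 5 Serpina1 genes. Among all 32851 promoters of the same length, 7.10% held it. TTGCNNAA was found in 5 of 7 (Serpina7, Serpina1a, Serpina1b, Serpina1d and Serpina1e) against 10.8% of all promoters. Those of the 5 Serpina1 genes are copies of one another, with 63.3% to 91.4% identity, and do not count as separate observations. None of the 7 held TTCNNNGAA (STAT), CAAAGTCCA (HNF4) or TGATGNAAT (ATF4 composite), which were present in 8.30%, 0.475% and 0.965% of all promoters. No matches overlapped in these 7 windows, and a match is a string of letters that says nothing of binding.

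Between 12016242 and 20023108 reads were counted on genes per library. Normalized counts are the deposited counts divided by the effective library size from edgeR's TMM method and scaled to a common size, and log2 fold changes are Pcx L-/- against control from edgeR's quasi-likelihood fit, each with an approximate standard error (SE). Pcx itself was at 18936 ± 3249 normalized counts (SD, n = 4) in controls and 681 ± 89.9 (SD, n = 4) in Pcx L-/- liver, so the labels fit their libraries. Pcx L-/- replicate 1 stood apart from the other 3. Among all genes called at an adjusted p under 0.05, it was the Pcx L-/- library nearest to the controls in 74.8%, against 4.65% to 13.0% for replicates 2 to 4, although its Pcx count of 758 was close to their 556 to 732. It is also the only Pcx L-/- mouse with a number in the 500s, whereas 2 controls have one, and the meaning of these numbers is not given. Its globin and other red blood cell transcripts summed to 4085 CPM (counts scaled to library size), above the 280 to 985 of the controls, with 4 of 5 red blood cell genes tested having a positive log2 fold change and 0 of 5 called by edgeR, by DESeq2 or at an unadjusted p under 0.05. The part of red blood cell transcripts in the results was not tested, and some values are given without this mouse as well.

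Serpina7 was the 1 gene of the 10 that was higher in Pcx L-/- liver, by 52.5 times from the means of normalized counts. Controls 1 to 4 had 20, 111, 53 and 45 reads on it, which gave 18.2, 120, 57.0 and 76.4 normalized counts. Pcx L-/- replicates 1 to 4 had 663, 5824, 6548 and 4144 reads, or 626, 4445, 5092 and 4112 normalized counts. Every Pcx L-/- mouse was above every control, and replicate 1, at 5.2 times the highest control, had only 13.8% of the mean of the other 3. The means were 68.0 ± 42.4 (SD, n = 4) in controls and 3569 ± 2004 (SD, n = 4) in Pcx L-/- liver. The log2 fold change was 5.74 (SE 0.68), and it was 6.09 without Pcx L-/- replicate 1. Within the mice numbered in the 500s the difference of mean log2 normalized counts was 3.70 (2 controls, 1 Pcx L-/-), and within those in the 800s it was 6.08 (2 controls, 3 Pcx L-/-).

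By FPKM, which allow for gene length and library total, it ranked 9494 of 13168 tested genes in controls and 592 in Pcx L-/- liver. Its FPKM was 0.43, 2.86, 1.33 and 1.61 in controls 1 to 4, and 15.3, 131, 149 and 118 in Pcx L-/- replicates 1 to 4. In proportion to the summed FPKM of the 10 genes it made up 0.0115% ± 0.0074 (SD, n = 4) in controls and 1.32% ± 0.822 (SD, n = 4) in Pcx L-/- liver.

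The other 9 genes all had a negative log2 fold change, and 7 of them were called lower by edgeR at an adjusted p under 0.05. Across all 13168 genes tested, 27.6% were called, 14.1% higher and 13.5% lower. Since the genes were chosen on this contrast, nothing is read from their share. In 8 of the 10 the values of the genotypes did not overlap, and this held for 27.6% of all genes tested. The median log2 fold change of the 10 was -0.77 and that of all genes tested was -0.01. With scaling by library size only, which put the median of all genes at 0.28, 6 were called lower, beside 870 of all genes tested. Pcx L-/- replicate 1 was the highest of the 4 Pcx L-/- mice for every one of the 9 genes. Without it 9 genes were called lower, at log2 fold changes from -1.60 (Serpina1e) to -0.73 (Serpina1c), and without replicate 2, 3 or 4 the numbers were 4, 3 and 3. Lower calls over all genes moved the same way, from 1777 to 2370 without replicate 1, and to 1043, 1097 and 953 without replicates 2, 3 and 4. Counts of the lists below with a mouse left out stand beside these. Whole liver was measured, so fewer cells of a type and less RNA per cell cannot be told apart.

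**Figure D1:**
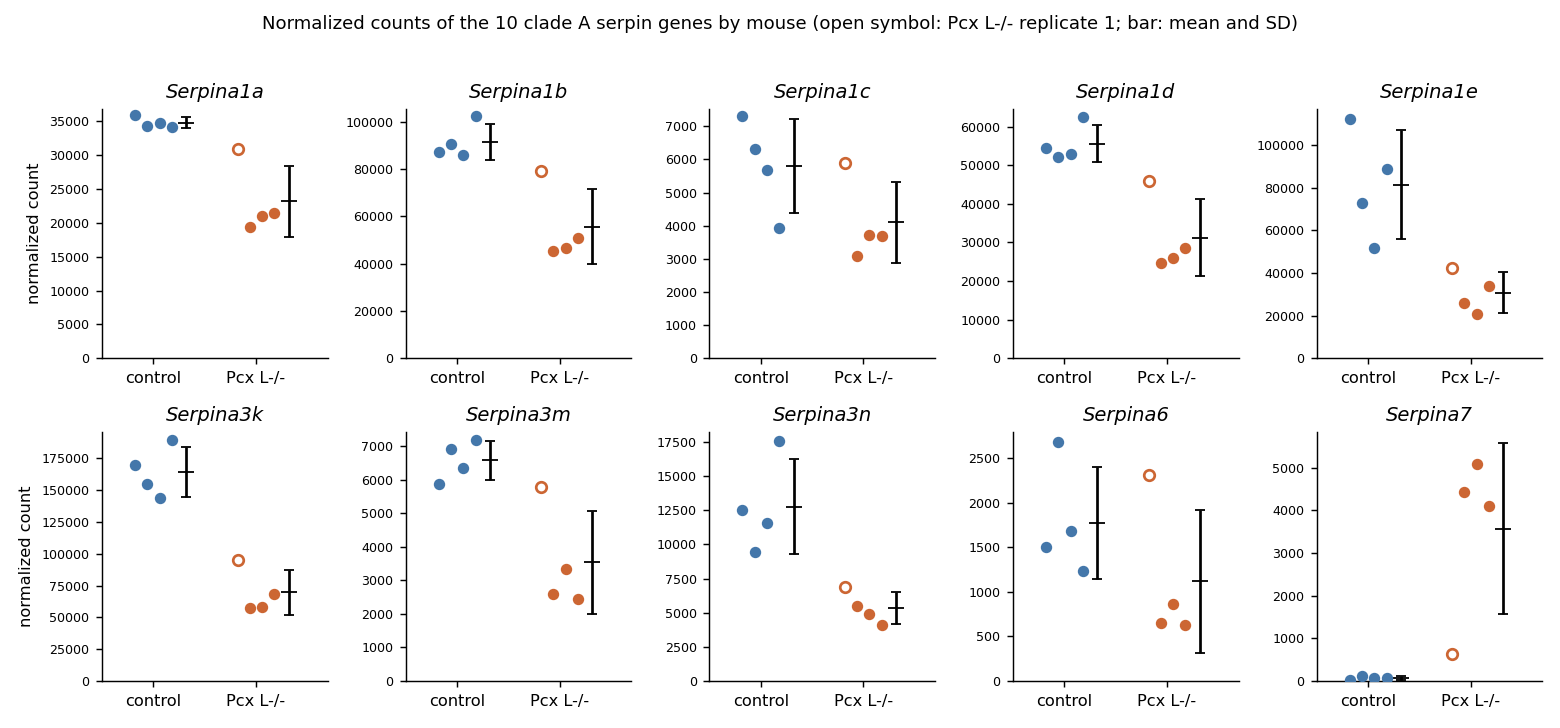
Normalized counts of each of the 10 genes (y axis, from 0, one scale per gene) in the 4 control and 4 Pcx L-/- mice, with the mean and SD at the side; the open symbol is Pcx L-/- replicate 1. Serpina7 is at 18.2 to 120 in controls and at 626 to 5092 in Pcx L-/- mice, while for the other 9 genes the open symbol is the highest of its group.

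Among the antitrypsin genes, Serpina1e had the largest difference and the widest spread between control mice. Its normalized counts were 112457, 72944, 51507 and 88880 in controls 1 to 4 and 42345, 25878, 20580 and 34001 in Pcx L-/- replicates 1 to 4. The groups did not overlap, although the lowest control and the highest Pcx L-/- mouse were close. The log2 fold change was -1.41 (SE 0.28), and the Pcx L-/- mean was 37.7% of the control mean. Serpina1d was at 52094 to 62556 in controls and 24655 to 45967 in Pcx L-/- liver, a log2 fold change of -0.83 (SE 0.21). For Serpina1b the ranges were 85804 to 102270 and 45359 to 78955 normalized counts, with a log2 fold change of -0.72 (SE 0.20). Controls were within a narrow band for Serpina1a, at 34132 to 35966, and Pcx L-/- mice were at 19365 to 30975, with a log2 fold change of -0.59 (SE 0.17). These 4 genes did not overlap between genotypes and were called lower.

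Serpina1c, the least abundant of the 5, was not called. Controls 1 to 4 had 7306, 6311, 5670 and 3934 normalized counts, and Pcx L-/- replicates 1 to 4 had 5893, 3085, 3718 and 3701. Its lowest control was below its highest Pcx L-/- mouse, and the log2 fold change was -0.50 (SE 0.23). Most of its sequence is shared with Serpina1a, so its reads are the least certain. With the reads of all 5 Serpina1 genes summed before fitting, the log2 fold change was -0.89 (SE 0.22).

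The make-up of the antitrypsin transcripts also differed between mice. Serpina1e made up 30.0% ± 6.39 (SD, n = 4) of the summed Serpina1 FPKM in controls, from 22.5% to 38.0%, and 21.3% ± 2.97 (SD, n = 4) in Pcx L-/- liver, from 17.6% to 24.8%, so the ranges overlapped. Serpina1a made up 13.1% ± 1.53 in controls and 16.3% ± 1.21 in Pcx L-/- liver, and the ranges of 11.7% to 15.1% and 15.2% to 17.9% were apart by little. Serpina1b was 30.8% ± 3.10 and 34.6% ± 1.07, and Serpina1d 23.6% ± 2.25 and 24.5% ± 1.05 (SD, n = 4 each). The sum itself was 9043 ± 991 FPKM in controls and 5828 ± 1069 FPKM in Pcx L-/- liver (SD, n = 4 each).

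**Figure D2:**
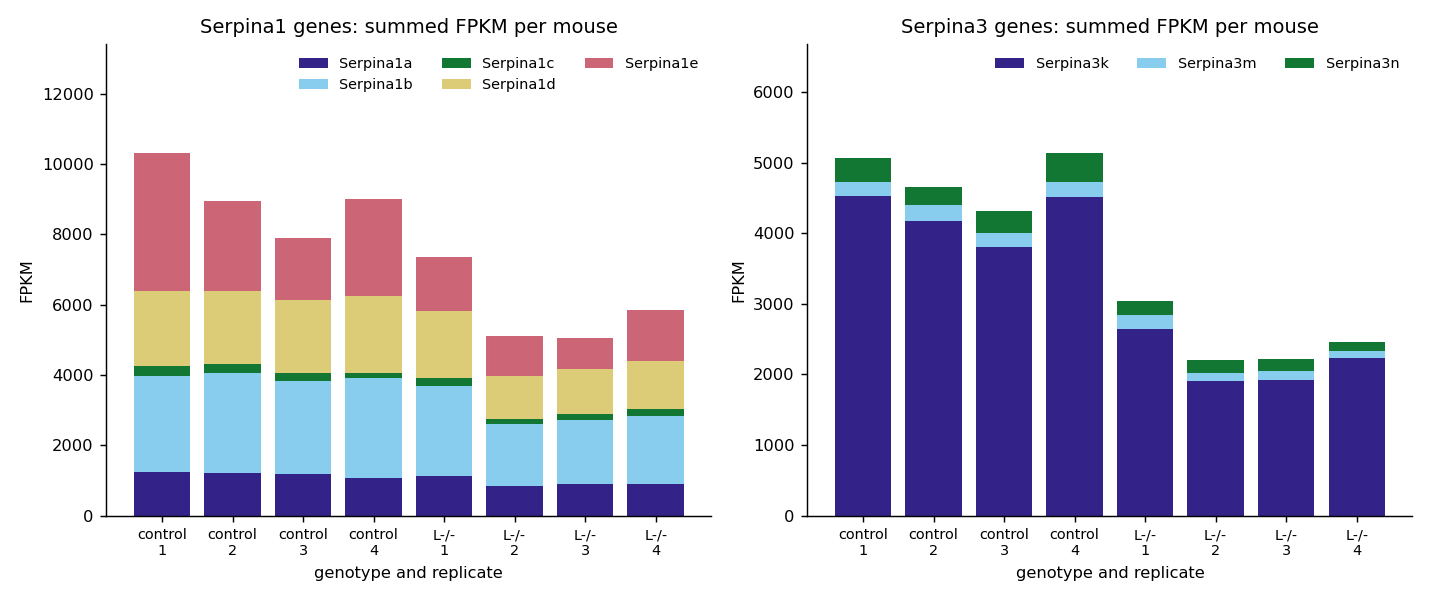
Summed FPKM (y axis, from 0) of the 5 Serpina1 genes (left) and the 3 Serpina3 genes (right) in each mouse, stacked by gene. The Serpina1 sum is 7894 to 10315 FPKM in controls and 5045 to 7339 FPKM in Pcx L-/- mice, and the segment of Serpina1e varies most between controls.

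Serpina3k, known as a kallikrein-binding protein, was the most abundant of the 10 per length in both genotypes. It had 170007, 154660, 144124 and 189142 normalized counts in controls 1 to 4 and 95359, 57428, 57939 and 68494 in Pcx L-/- replicates 1 to 4. All Pcx L-/- mice were below all controls, and the mean was 42.4% of that of controls. The log2 fold change was -1.24 (SE 0.21). Serpina3n, an acute-phase serpin that inhibits granzyme B, had 12497, 9465, 11539 and 17584 normalized counts in controls and 6863, 5464, 4894 and 4072 in Pcx L-/- replicates 1 to 4. Here too the groups were apart, with a mean at 41.7% of controls and a log2 fold change of -1.26 (SE 0.21). Pcx L-/- replicate 1 was at 143% of the mean of the other 3, its smallest excess among the 9 genes.

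Serpina3m was at 5871, 6900, 6344 and 7170 normalized counts in controls 1 to 4 and at 5772, 2581, 3333 and 2436 in Pcx L-/- replicates 1 to 4. Replicate 1 lay just under the lowest control and at 207% of the mean of the other 3. The log2 fold change was -0.90 (SE 0.24), and -1.24 without replicate 1. Summed over the 3 genes, the log2 fold change was -1.23 (SE 0.21). Their make-up differed by less than its spread between mice, with Serpina3k at 88.8% ± 0.961 of the summed FPKM in controls and 87.8% ± 1.89 in Pcx L-/- liver (SD, n = 4 each).

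Serpina6, the plasma carrier of corticosterone, was not called. Its normalized counts were 1507, 2683, 1689 and 1235 in controls 1 to 4 and 2318, 655, 869 and 629 in Pcx L-/- replicates 1 to 4. Replicates 2 to 4 were below every control, whereas replicate 1 was above 3 of the 4 controls and at 323% of the mean of the other 3 Pcx L-/- mice. The log2 fold change was -0.67 (SE 0.40), and it was -1.31 without replicate 1. Within the 500s the difference of mean log2 normalized counts was 0.21, and within the 800s it was -1.02. Without control replicate 2 the log2 fold change was -0.41, so the value depended on single mice of both genotypes.

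**Figure D3:**
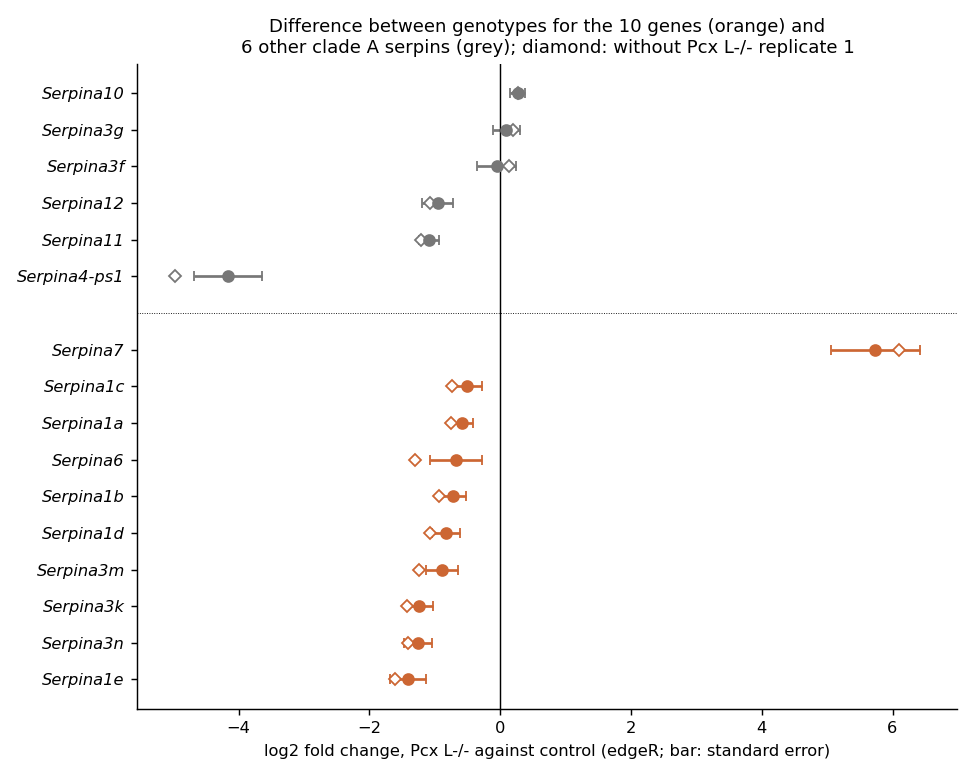
Log2 fold change of Pcx L-/- against control (x axis, filled circles with SE) for the 10 genes (orange) and the 6 other clade A genes that were tested (grey), with diamonds for the value without Pcx L-/- replicate 1. Serpina7 stands at 5.74, the other 9 between -1.41 and -0.50, and Serpina4-ps1 at -4.17.

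Ordered by level per length in controls, the mean FPKM was 4253 for Serpina3k, 2761 for Serpina1b, 2756 for Serpina1e, 2119 for Serpina1d and 1176 for Serpina1a, then 327 for Serpina3n, 230 for Serpina1c, 211 for Serpina3m, 59.7 for Serpina6 and 1.56 for Serpina7. The ranges of neighbouring genes overlapped for Serpina1b and Serpina1e, Serpina1e and Serpina1d, Serpina3n and Serpina1c, and Serpina1c and Serpina3m. In Pcx L-/- liver the FPKM was 2175 for Serpina3k, 2015 for Serpina1b, 1430 for Serpina1d, 1248 for Serpina1e, 942 for Serpina1a, 193 for Serpina1c, 166 for Serpina3n, 135 for Serpina3m, 103 for Serpina7 and 43.4 for Serpina6. There the only neighbours whose ranges did not overlap were Serpina1a and Serpina1c. Serpina7 was the least abundant of the 10 in all 4 controls and was above Serpina6 in 3 of 4 Pcx L-/- mice. The 10 genes took 2.14% to 2.67% of all reads in controls and 1.29% to 1.80% in Pcx L-/- liver.

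Of the 16 further clade A genes listed, 6 passed the filter on low counts, and of these edgeR called 0 higher and 3 lower, with a median log2 fold change of -0.51. At an unadjusted p under 0.05 the counts were 1 and 3, and DESeq2 called 0 and 3. Serpina4-ps1, annotated as a pseudogene, was at 134 ± 55.5 normalized counts in controls and 7.82 ± 7.24 in Pcx L-/- liver (SD, n = 4 each), with a log2 fold change of -4.17 (SE 0.53, edgeR adjusted p = 0.000799). Serpina11 fell by 1.09 on the log2 scale (SE 0.16, edgeR adjusted p = 0.00120), and Serpina12 (vaspin) fell by 0.96 (SE 0.24, edgeR adjusted p = 0.0128). Serpina10, which inhibits coagulation factor X together with protein Z, had 1861 ± 220 normalized counts in controls and 2236 ± 132 in Pcx L-/- liver (SD, n = 4 each), and its log2 fold change of 0.27 was not called (edgeR adjusted p = 0.109). With library size only it was called higher, at 0.56. Serpina3f (log2 fold change -0.05) and Serpina3g (0.09) were not called, with edgeR adjusted p of 0.913 and 0.772. The rest had too few reads to test, with 71 reads over the 8 libraries on Serpina3h, 46 on Serpina3i, 18 on Serpina3b, 14 on Serpina3c, 2 each on Serpina3a and Serpina9, and 1 each on Serpina1f and Serpina5. Serpina16 and Serpina3j had 0 reads.

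Of 13 serpins outside clade A that were tested, edgeR called 8 lower and 0 higher, with a median log2 fold change of -0.75. Among all genes tested, 13.5% were called lower and 14.1% higher. At an unadjusted p under 0.05 the counts were 10 and 0, and DESeq2 called 9 and 0. Serpinb1a, an inhibitor of neutrophil elastase inside cells, had the lowest value (-2.78, SE 0.39, edgeR adjusted p = 0.00110), from 58.9 ± 17.2 normalized counts in controls to 8.80 ± 5.43 in Pcx L-/- liver (SD, n = 4 each). Serpine2 (protease nexin) fell by 1.60 (SE 0.38, edgeR adjusted p = 0.0111). Among the abundant plasma inhibitors, Serpind1 (heparin cofactor) fell by 1.11 and Serpinc1 (antithrombin) by 0.80, with edgeR adjusted p of 0.00921 and 0.00648. The highest value, 0.28 for Serpinb6a, was not called (edgeR adjusted p = 0.222).

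Of 27 other genes of thyroid hormone handling that were tested, 1 was called higher and 11 lower, with a median log2 fold change of -0.34. For this list and its parts, the shares over all genes tested were 14.1% higher and 13.5% lower. The remaining plasma carriers, Ttr (transthyretin, -0.43, edgeR adjusted p = 0.261) and Alb (albumin, -0.63, edgeR adjusted p = 0.0532), were not called. Ttr had 36805 to 72136 normalized counts in controls and 32773 to 67003 in Pcx L-/- liver, and the ranges of Alb, 1147430 to 1419710 and 690172 to 1019220, did not overlap. Without Pcx L-/- replicate 1 both were called lower, Ttr at -0.70 and Alb at -0.75 (edgeR adjusted p of 0.0223 and 0.00119). Of 7 transporters that take hormone into cells, 6 were lower and 0 higher by edgeR, by DESeq2 and at an unadjusted p under 0.05. Slco1a1 fell by 1.36 (SE 0.19, edgeR adjusted p = 0.00109) and Slc10a1, which mainly takes up bile acids, by 1.29 (SE 0.27, edgeR adjusted p = 0.00644). Slc16a10 fell by 0.60 (edgeR adjusted p = 0.0369), a call that was lost in 8 of the 18 alternative settings tried, and by 0.35 without control replicate 4. Slc7a8 was not called at -0.18 (edgeR adjusted p = 0.541).

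Dio1, the deiodinase that activates thyroxine in liver and a gene that thyroid hormone induces, fell from 2048 ± 282 to 1020 ± 328 normalized counts (SD, n = 4 each), with a log2 fold change of -1.01 (SE 0.19, edgeR adjusted p = 0.00439). Its Pcx L-/- values were 1512 in replicate 1 and 844 to 872 in the other 3. Sult1b1, which conjugates iodothyronines, fell by 0.83 (edgeR adjusted p = 0.0404, lost in 10 of 18 alternatives), and Ugt1a1 was not called at -0.21 (edgeR adjusted p = 0.212) except without Pcx L-/- replicate 1 (-0.31, edgeR adjusted p = 0.0338). Of the receptors and their partners 3 of 7 were lower, among them Thrb (-0.83, edgeR adjusted p = 0.0199) and Thra (-0.41, edgeR adjusted p = 0.0332), whose calls were lost in 5 and 13 of 18 alternatives, whereas Ncoa1 and Ncor1 were at 0.05 and 0.01 (edgeR adjusted p of 0.820 and 0.966). Of 8 further genes that the hormone induces, with Dio1 counted among the enzymes and not here, edgeR and DESeq2 called 1 higher and 0 lower, as did an unadjusted p under 0.05, with a median of -0.04. Me1 (malic enzyme) rose by 0.73 (SE 0.17, edgeR adjusted p = 0.0113), and Thrsp was at -0.06 (edgeR adjusted p = 0.910). The lowest of the 8, Cpt1a at -0.15 and Gpd2 at -0.13, and the second highest, Hr at 0.62, were not called. Counts of lower genes in the whole list were 15 without Pcx L-/- replicate 1, and 5, 7 and 5 without replicate 2, 3 and 4.

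**Figure D4:**
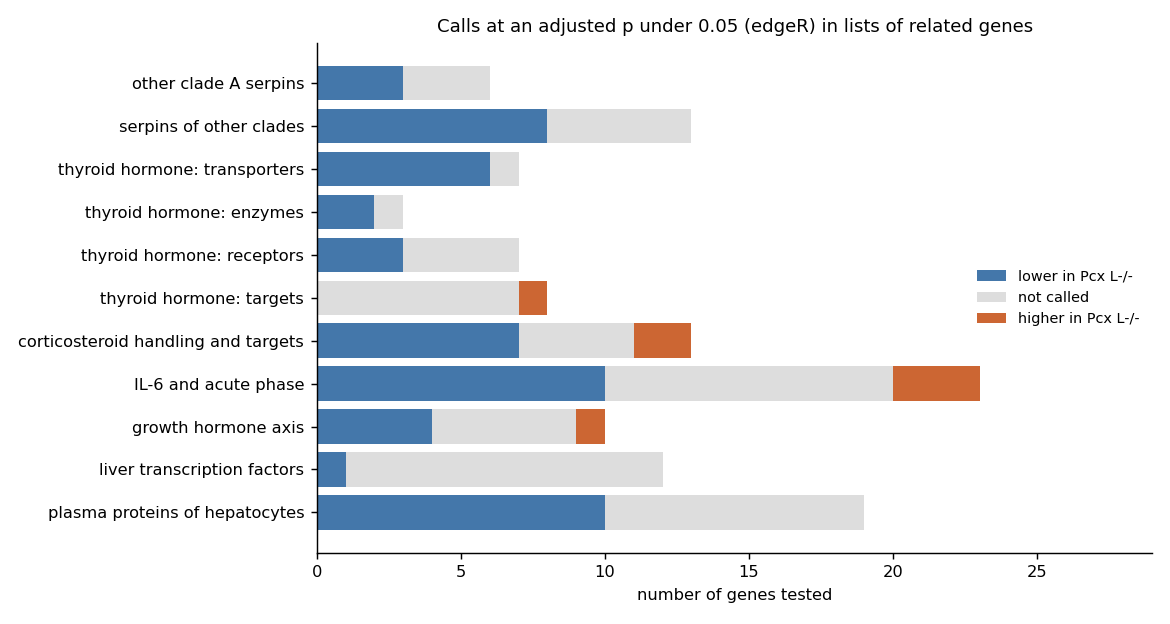
Numbers of genes tested (x axis) in each list of related genes, split into those called lower (blue), not called (grey) and called higher (orange) in Pcx L-/- liver. Among the lists drawn, lower calls outnumber higher ones except for the targets of thyroid hormone, where 1 gene is higher and 0 are lower. In settings not drawn, the transcription factors had 2 higher and 0 lower with library size only. Higher calls also outnumbered lower ones for them in the limma fits on FPKM.

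Among 13 genes that handle or answer to corticosteroids, the ligands of Serpina6, 2 were called higher and 7 lower, with a median log2 fold change of -0.51. Shares over all genes tested were 14.1% higher and 13.5% lower. The receptor Nr3c1 fell by 0.51 (SE 0.15, edgeR adjusted p = 0.0293), but the call was lost in 10 of 18 alternatives, with an adjusted p of up to 0.197. Hsd11b1, which regenerates active corticosteroid, fell by 0.82 (SE 0.19, edgeR adjusted p = 0.00930). The reductases Srd5a1 and Akr1d1, which inactivate it, fell by 1.98 and 1.82 (edgeR adjusted p of 0.00111 and 0.0107). Sgk1 rose by 2.15 (SE 0.37) and Mt2 by 1.48 (SE 0.20), with edgeR adjusted p of 0.00254 and 0.000971. Without control replicate 3, or Pcx L-/- replicate 3 or 4, 4 genes were called lower.

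Interleukin 6 and the acute phase, to which Serpina3n responds, gave 3 of 23 genes called higher and 10 lower, with a median of -0.58. For this list and the next, shares over all genes tested were 14.1% higher and 13.5% lower. Apcs (serum amyloid P) rose by 2.78 (SE 0.23, edgeR adjusted p = 0.000128), Lcn2 by 1.67 (SE 0.38, edgeR adjusted p = 0.00873) and Hamp (hepcidin) by 1.03 (SE 0.33, edgeR adjusted p = 0.0368, lost in 5 of 18 alternatives). Saa4 fell by 1.80 (SE 0.35, edgeR adjusted p = 0.00453) and Saa2 by 1.20 (SE 0.33, edgeR adjusted p = 0.0192, lost in 4 of 18). The number of lower genes was 16 without Pcx L-/- replicate 1 and 6 without replicate 2, 3 or 4. Of 10 genes of the growth hormone axis, 1 was higher (Stat5a, 0.42, edgeR adjusted p = 0.0337) and 4 lower, with a median of -0.54. The call of Stat5a was lost in 8 of 18 alternatives. Cux2, which is female-biased in mouse liver, fell by 2.81 and Igf1 by 1.05 (edgeR adjusted p of 0.00364 and 0.0133). Bcl6, at 0.46, was not called (edgeR adjusted p = 0.432). Its value was 0.79 and called without Pcx L-/- replicate 1 (edgeR adjusted p = 0.00527), 0.26 without replicate 3 and 0.03 with the mouse-number series as a term.

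Of 12 transcription factors that drive secretory genes of hepatocytes, edgeR and DESeq2 called 0 higher and 1 lower, with a median of -0.25 (0 and 2 at an unadjusted p under 0.05). Over all genes tested, edgeR called 14.1% higher and 13.5% lower. The 1 was Cebpd, a C/EBP factor (-0.47, SE 0.15, edgeR adjusted p = 0.0425), and this call was lost in 11 of 18 alternatives, with values up to -0.16 and an adjusted p of up to 0.542. Onecut1 was at -0.62, Foxa2 at 0.42 and Foxa3 at 0.31, none of them called (edgeR adjusted p of 0.309, 0.129 and 0.222). Onecut1 was at -1.18 and called without Pcx L-/- replicate 1 (edgeR adjusted p = 0.0195), and at -0.28 and -0.41 without control replicate 4 and Pcx L-/- replicate 2. With library size only Foxa2 and Foxa3 were called higher, at 0.68 and 0.61. Other abundant plasma proteins of hepatocytes gave 0 of 19 called higher and 10 lower by edgeR, with a median of -0.50. DESeq2 called 0 and 14, as did an unadjusted p under 0.05. Apoa1 fell by 1.04 and Vtn by 0.95 (edgeR adjusted p of 0.00400 and 0.00554), and Ahsg (0.28) and Rbp4 (0.14) were not called (edgeR adjusted p of 0.252 and 0.508). The number of lower genes was 16 without Pcx L-/- replicate 1 and 5, 4 and 5 without replicates 2, 3 and 4.

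Markers of the cell types of the liver were counted in the same way, beside 14.1% higher and 13.5% lower over all genes tested. Of 8 hepatocyte markers, edgeR called 3 lower and 0 higher (5 and 0 by DESeq2 and at an unadjusted p under 0.05), and their summed level was 112516 to 132931 CPM in controls and 62126 to 97800 CPM in Pcx L-/- liver. Of this sum, Alb and Ttr (not called) made up 71447 to 85806 CPM in controls and 42590 to 63991 CPM in Pcx L-/- liver. Of 8 Kupffer cell markers and 8 endothelial markers 0 were called by edgeR's test or by DESeq2, and at an unadjusted p under 0.05 the counts were 0 and 2, with sums of 281 to 403 and 402 to 536 CPM in controls and 324 to 407 and 353 to 423 CPM in Pcx L-/- liver. Stellate cell markers gave 1 of 8 lower (Acta2) and cholangiocyte markers 1 of 6 lower (Sox9), each lost in 7 of 18 alternatives. Of the 8 neutrophil markers 2 were tested, 0 were called by edgeR or DESeq2 (1 at an unadjusted p under 0.05), and the defining marker Ly6g had 0 reads in all libraries.

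The 5 genes whose pattern was most like that of Serpina7 were sought among all genes tested by Pearson's r of log2(normalized CPM + 1) over the 8 libraries, as a description of these libraries, which fall into the genotypes. They were Zfr2 (r = 0.993), Snupn (0.993), Lrp11 (0.989), Tcea1 (0.989) and Cdpf1 (0.989). All 5 were higher in Pcx L-/- liver, by log2 fold changes from 0.68 (Snupn) to 2.60 (Lrp11), and in all 5 Pcx L-/- replicate 1 lay between the controls and the other 3 mice. Both traits follow from their choice by likeness to Serpina7. Lrp11, a receptor-related membrane protein, had 28.2 to 43.3 normalized counts in controls, 125 in replicate 1 and 228 to 292 in replicates 2 to 4. Tcea1, a transcription elongation factor, had 637 to 755, 1027 and 1369 to 1495. Every one of the other 9 serpins had a negative r with Serpina7, from -0.97 for Serpina3k to -0.70 for Serpina6. These signs restate the opposite genotype differences. For deviations from the genotype means, r was -0.89 (Serpina1a) to -0.53 (Serpina3n). In these, Pcx L-/- replicate 1 was the lowest of its group for Serpina7 and the highest for the other 9.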

How the data were processed

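Liver RNA of 4 Pcx L-/- mice and 4 controls was extracted with TRIzol and RNeasy columns, and libraries were made and sequenced by a company. The authors deposited raw read counts per Ensembl gene on mm10 (GRCm38) and FPKM values, with 100% of the 142384 FPKM values above 0 equal to the deposited count over 1 length per gene and the library total (relative tolerance 1e-06). The submitters' processing notes name STAR 2.5, HTSeq 0.6.1 and DESeq2. Strand, annotation release and the treatment of multi-mapping reads are not named in the sources used here. GENCODE M21 matched 97.8% of identifiers to symbols.

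Counts were tested with edgeR 4.0.16 (R 4.3.3), using TMM factors, filterByExpr (minimum count 10, minimum total 15), the quasi-likelihood F test and Benjamini-Hochberg adjustment over 13168 genes. Standard errors are the log2 fold change over the square root of F. Each library came from a separate mouse. Depths of 12016242 to 20023108 reads limit the precision for genes with few reads. Alternatives were DESeq2 1.42.0 without shrinkage, limma 3.58.1 on log2(FPKM + 1) and log2(FPKM + 0.1), which understate the change of low genes, other scalings and filters, a block for replicate number, a term for mouse-number series, summed paralogs and each mouse left out. Scaling by library size only was chosen after seeing the data. Steps were tested on simulated data. Coding sequences were aligned globally with Biopython 1.88.

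The members and gene lists were chosen with earlier results of these data known, and 1 symbol of a list was corrected to Trf after the files were seen. Named genes are the 10 members, the other clade A genes with a read, the 2 highest and 2 lowest of each list by log2 fold change, Ttr, Alb, Dio1, Thrb, Thrsp, Nr3c1, Hsd11b1, Pcx and the 5 genes most like Serpina7. Further genes were named after their values were seen. Some genes that this rule would name are not reported here.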

Additional observations from a re-analysis of the deposited data

Results flagged for a closer look

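In 9 of 142 groups of 4 mice examined, for the genes named, 1 mouse stood apart from the other 3 by Dixon's ratio of its gap to the whole range, taken on log2(normalized count + 1) and its 95% critical value for 4 samples. Chance flags about 1 in 20 such groups, or 7.1 of 142. Of the 9, 7 concern Pcx L-/- replicate 1. For Serpina7 the ratio was 0.898, with 626 normalized counts against 4112 to 5092 in the other 3. For Dio1 the ratio was 0.944, with 1512 normalized counts against 844 to 872. For Srd5a1 it was 0.852 (314 against 143 to 161), and for Bcl6 0.868 (137 against 647 to 820). Among the genes most like Serpina7, which share its pattern by selection, it was 0.913 for Zfr2, 0.890 for Cdpf1 and 0.837 for Snupn. Without the log, 3 of the 9 were under the critical value, Serpina7 at 0.781, Bcl6 at 0.747 and Snupn at 0.820. The other 2 concern control replicate 4. Vtn had a ratio of 0.941 and 42389 normalized counts against 31424 to 31984 in the other controls. Slc16a10 had a ratio of 0.939 and 4693 normalized counts against 2625 to 2720.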

How the results depend on the processing

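Serpina7 was the 1 member called higher in all 17 alternatives in which single genes were kept apart, with a log2 fold change from 5.03 to 6.22. No called value changed direction. Of 40 called genes other than the 10 members, 26 kept their call in all 18 alternatives and 14 lost it in 1 or more, 11 of them with a single mouse left out. The replicate numbers do not pair the mice (correlations of same-numbered mice 0.129, -0.152, -0.132 and -0.087), and with a replicate block Serpina7 was at 5.66 and 1481 genes were higher and 1494 lower. The block and the mouse-number series each left 0 growth hormone genes higher and 0 transcription factors lower, and moved no other count by over 1.5 times.

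With limma on log2(FPKM + 1), log2(FPKM + 0.1) and log2(FPKM + 1) of all genes above 0, the counts were 3822, 3779 and 3189 higher and 823, 822 and 637 lower, against 1855 and 1777. With library size only they were 3915 and 870. In the same 3 limma fits the lower counts were 4, 4 and 3 for corticosteroid genes, 6, 6 and 6 for the acute phase, 0 for transcription factors, 5, 5 and 3 for plasma proteins and 6, 6 and 5 for thyroid hormone genes. The higher counts were 1 for other clade A serpins in all 3, 1, 1 and 0 for serpins of other clades, 2, 2 and 1 for transcription factors, 1, 1 and 0 for plasma proteins and 2 for thyroid hormone genes. With all genes above 0, 4 members and 5 serpins of other clades were lower. With library size only, 1 other clade A serpin, 1 serpin of another clade, 2 transcription factors and 3 plasma proteins were higher, and 0 transcription factors lower. FPKM are scaled by library total, as library size only is.

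With each mouse left out, 1156 to 2232 genes were higher and 953 to 2370 lower, members lower ranged from 3 to 9, and Serpina7 from 5.39 to 6.22. Higher counts ranged from 0 to 1 for other clade A serpins and for serpins of other clades and from 0 to 2 for growth hormone genes. Lower counts ranged from 6 to 10 for serpins of other clades, 4 to 7 for corticosteroid genes, 6 to 16 for the acute phase, 0 to 2 for transcription factors, 4 to 16 for plasma proteins and 5 to 15 for thyroid hormone genes. The highest came without Pcx L-/- replicate 1 for genes, members, the acute phase, plasma proteins and thyroid hormone genes, and the causes were not tested. With 18.2 to 120 normalized counts of Serpina7 in controls, depth limits how well its fold change is known.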
